A study of Mus musculus with 18 samples.

Results

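Resting lymphocytes keep a set of genes on that hold them out of the cell cycle. The data described here are the levels of 10 genes from families linked to this state. They are the Krüppel-like factors Klf2, Klf3, Klf4, Klf6, Klf9 and Klf13, the antiproliferative genes Btg1, Btg2 and Tob1, and Cdkn1b. Cdkn1b encodes the cyclin-dependent kinase inhibitor p27. The 10 were chosen by gene symbol, with earlier results of these data known. All 10 were found among the 21761 genes of the deposited table. Not all 10 were on in the naive B cells of this study, where Klf4 and Klf9 were scarce. RNA was sequenced from 3 sorted cell types of the mouse B lineage. Naive B cells (nB, B220+ GL7- Fas-) came from lymph nodes of mice that were not immunized. Germinal center B cells (GCB, B220+ GL7+ Fas+ and binding phycoerythrin, PE) came from draining lymph nodes, and bone marrow plasma cells (BMPC) were sorted as CD138+, both at day 30 after immunization with PE in complete Freund's adjuvant. Dnmt3-deficient mice were Dnmt3afl/flDnmt3bfl/fl with 1 Cre allele, and Dnmt3-sufficient littermates were Dnmt3afl/flDnmt3bfl/fl without Cre, so the floxed alleles of both DNA methyltransferase genes were present in every mouse. The Cre recombinase is specific to B cells and acts from early B cell development in the bone marrow, and only the B lineage of these mice is recombined. Mice were young adults of a mixed B6;129S4 background when the experiment began. There were 18 libraries, 3 to a group, and each GCB library was made from more than 1 mouse.

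Krüppel-like factors are zinc-finger proteins that bind GC-rich and CACCC sequences. Klf2 keeps naive lymphocytes quiescent and sustains their homing and exit receptors, Klf3 is mainly a repressor, and Klf4 slows the division of B cells. Klf6 and Klf9 respond to injury and to hormone signals, and Klf13 is abundant in lymphocytes. The BTG and TOB proteins bind the CCR4-NOT complex, which shortens the poly(A) tails of messenger RNAs and so speeds their decay. p27 binds and inhibits cyclin-CDK2 complexes in G1. It is removed in dividing cells by the SCF ubiquitin ligase, whose substrate receptor is Skp2 and whose accessory subunit is Cks1b, and FoxO factors can raise its transcription.

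The members lie on 10 different chromosomes, and all are annotated as protein-coding genes in the GENCODE annotation of NCBIM37, the assembly also named mm9. On that build Klf2 spans chr8:74842932-74845555, Btg1 spans chr10:96079635-96085447 and Cdkn1b spans chr6:134870419-134875531, all on the plus strand. Btg2 lies on the minus strand at chr1:135971747-135975697. The sequences upstream of these genes are shown because all 6 GCB libraries of each gene lay below all 6 nB libraries, and because each holds a match to a known element, MEF2 in both Klf2 and Cdkn1b. RefSeq promoters of GRCm38.p6 were available for all 10 members, and the 250 bases before each start were matched without a mismatch to a single place on the same chromosome of NCBIM37. The 200 bases that lie 250 to 51 bases before the RefSeq start are printed in the direction of transcription. Capitals mark a match to FoxO (GTAAACA), CRE (TGACGTCA) or MEF2, on either strand. They are chr8:74842711-74842910 for Klf2, chr10:96079385-96079584 for Btg1, chr1:135975783-135975982 for Btg2 (minus strand) and chr6:134870169-134870368 for Cdkn1b.
Klf2: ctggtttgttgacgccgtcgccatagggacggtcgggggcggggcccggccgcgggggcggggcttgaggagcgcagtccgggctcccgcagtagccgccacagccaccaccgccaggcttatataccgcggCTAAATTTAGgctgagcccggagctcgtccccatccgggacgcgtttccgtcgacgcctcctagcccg
Btg1: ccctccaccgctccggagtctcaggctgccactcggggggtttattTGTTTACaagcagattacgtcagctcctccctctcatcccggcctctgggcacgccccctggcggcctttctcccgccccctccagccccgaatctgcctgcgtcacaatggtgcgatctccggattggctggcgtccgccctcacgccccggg
Btg2: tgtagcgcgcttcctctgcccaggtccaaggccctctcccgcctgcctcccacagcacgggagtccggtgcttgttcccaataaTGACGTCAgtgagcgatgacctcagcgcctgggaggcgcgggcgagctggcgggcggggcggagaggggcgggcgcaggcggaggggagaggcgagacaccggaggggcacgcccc
Cdkn1b: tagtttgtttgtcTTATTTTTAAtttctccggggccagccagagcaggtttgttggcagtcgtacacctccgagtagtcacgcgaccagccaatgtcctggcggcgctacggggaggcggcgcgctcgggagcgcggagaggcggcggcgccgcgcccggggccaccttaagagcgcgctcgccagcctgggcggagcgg

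Over the full 250 bases and both strands, a MEF2 match lay before Klf2 (118 to 109 bases before the start) and Cdkn1b (237 to 228 bases), and 3.01% of 27025 RefSeq promoters hold one. The FoxO letters lay before Btg1, 204 to 198 bases before the start, and before Klf9, against 3.09% of promoters. The full CRE lay before Btg2, 166 to 159 bases before the start, against 1.62%. The GC box GGGCGG was before 9 of the 10 members (32.9% of promoters) and the CCAAT letters before 7 (34.5%). The KLF letters CACCC were before 5 members (51.3% of promoters), and the E box CAGGTG before 0 (17.1%). The AP-1 letters TGANTCA were before Klf9 (6.87% of promoters), and TATAAA was before Btg1 and Tob1 (13.0%). No motif was thus common to all members, and a match of letters is a description of the sequence and not a binding site.

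Values are FPKM, reads scaled by the exon length of a gene and by the reads counted on all genes of the library, so levels can be compared between genes per length. BMPC libraries were shallow, with 1355231 to 3803197 reads, where nB libraries had from 6692516 to 8987922 reads and GCB libraries from 7644544 to 8903872. The markers of each sorted cell type stood highest in that type. The summed level of 7 nB markers ran from 3224 to 4058 FPKM in nB, against 109 to 218 in BMPC and 1128 to 1518 in GCB, and that of 8 GCB markers was 1298 to 1498 in GCB against 34.0 to 81.9 in nB and 18.5 to 83.5 in BMPC. The 7 BMPC markers summed to 18915 to 51504 FPKM in BMPC and to 312 to 1520 elsewhere. BMPC libraries also held RNA of other marrow cells. The 7 neutrophil markers summed to 9.37 to 582 FPKM in BMPC and were all at 0 in nB and GCB. Of 6 erythroid markers, 4 were in the table, and they summed to 149 to 2194 FPKM in BMPC and at most 218 in nB and 11.6 in GCB. The 5 early B cell markers summed to 308 to 627 FPKM in BMPC and at most 22.5 elsewhere. The 6 T cell markers were at like sums in nB (58.8 to 153), GCB (77.4 to 134) and BMPC (72.5 to 218). The 5 NK cell markers reached 2.41 at most in GCB, with Ncr1 and Gzma at 0, against 46.1 to 138 in nB and 26.3 to 158 in BMPC, with Ncr1 and Klrb1c at 0. The 6 macrophage markers summed to between 63.5 and 227 in BMPC, against 1.70 to 73.9 in nB and 11.0 to 19.7 in GCB. What these cells contributed to the levels of the 10 genes in BMPC was not tested.

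The 10 genes followed several courses through the 3 cell types. Klf2, Klf3, Klf13, Btg1 and Btg2 stood highest in nB and lower in both later cell types. Cdkn1b was low in GCB alone, Klf6 was low in BMPC alone, and Tob1 was highest in BMPC. Klf4 had its lowest means in nB, and Klf9 was near 0 throughout. In nB the most abundant member was Btg1 and the least abundant were Klf4 and Klf9, a spread from 254 ± 13.4 FPKM to 0.0855 ± 0.0745 FPKM (SD, n = 3, Dnmt3-sufficient). Against the genes tested, the Btg1 mean in Dnmt3-sufficient nB lay above 97.6% of genes, that of Btg2 above 95.5%, and that of Klf13 above 95%. In these bulk libraries, fewer cells that express a gene and less of its RNA per cell cannot be told apart.

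**Figure D1:**
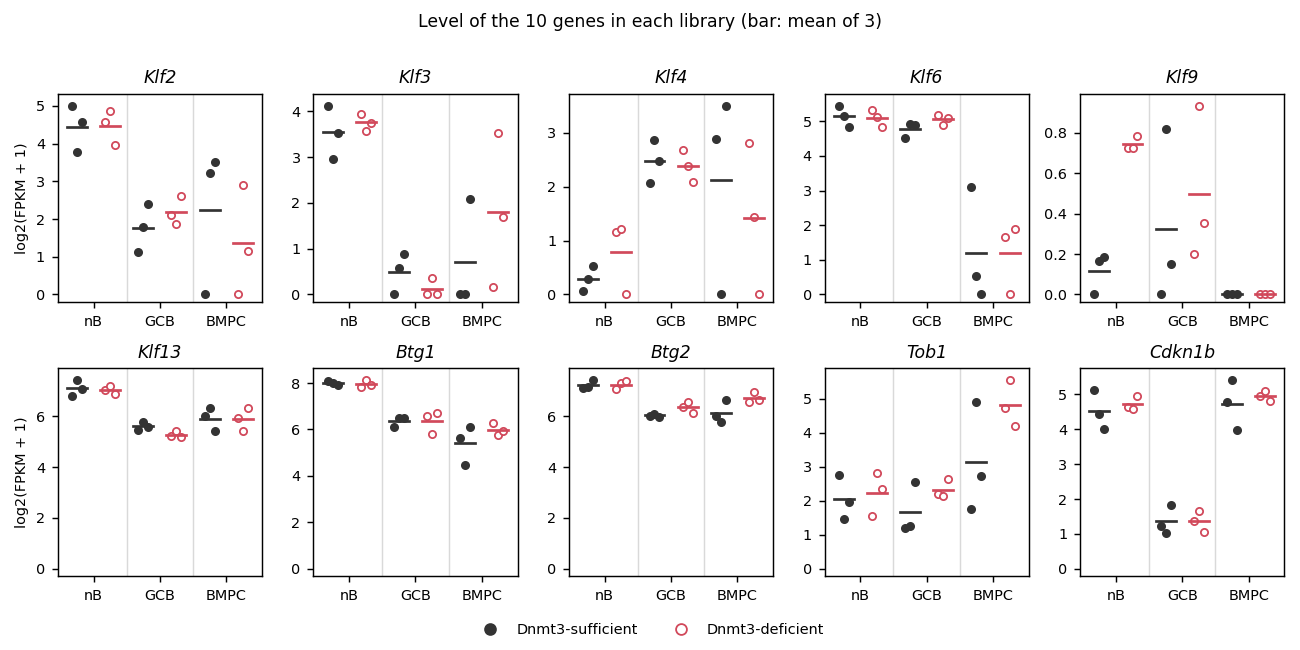
Level of each of the 10 genes on the log2(FPKM + 1) scale (vertical axes, which differ between panels) in the 18 libraries by cell type, with filled points for Dnmt3-sufficient and open points for Dnmt3-deficient libraries and bars for the mean of 3 libraries. Klf2, Klf3, Klf13, Btg1 and Btg2 are highest in nB, all 6 GCB libraries of Cdkn1b lie below all others, and all 6 BMPC libraries of Klf6 lie below all others.

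Differences were tested with limma on log2(FPKM + 1), and a gene is said to be called at an adjusted p of 0.05 or less with a difference of at least 1 on that scale. Of the 10 members, 9 were tested, having an FPKM above 1 in 2 or more libraries, and Klf9 was not. Because the members were chosen with earlier results of these data known, the shares of all genes beside their counts are description and test no excess. Between Dnmt3-sufficient GCB and nB, 6 members were lower and 0 higher, where 6.93% of the 11522 genes tested were lower and 7.22% higher. In Dnmt3-deficient cells 4 were lower and 0 higher, against 6.61% and 6.31% of genes. From nB to BMPC, 6 members were lower and 0 higher in Dnmt3-sufficient cells, against 27.6% and 9.74% of genes, and 5 were lower and 1 higher in Dnmt3-deficient cells, against 30.6% and 6.85%. From GCB to BMPC, 1 member was lower and 1 higher in Dnmt3-sufficient cells (20.9% and 6.67% of genes) and 1 was lower and 2 higher in Dnmt3-deficient cells (26.1% and 6.14%). The comparisons within a genotype share libraries and are not independent of each other. The shares of all genes given here also belong beside the counts of the related gene lists below.

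From nB to GCB the median over the 9 tested members was -1.50 (Dnmt3-sufficient) and -1.6 (Dnmt3-deficient), beside -0.11 and -0.13 over all genes. From nB to BMPC it was -1.19 and -1.15, beside -0.70 and -0.84 over all genes, so the members' median lay nearer that of all genes there. Scaling by the median of ratios moved the median of all genes by up to 0.18 in BMPC comparisons. Relative to the all-gene median, the fall in BMPC against Dnmt3-sufficient nB was -3.24 for Klf6, -2.14 for Klf3, -1.89 for Btg1, -1.50 for Klf2, -0.49 for Klf13 and -0.39 for Btg2. In Dnmt3-deficient cells these values were -3.08, -1.12, -1.13, -2.27, -0.32 and 0.30, so Btg2 fell less than the median gene there. On the same scale Cdkn1b stood at 0.91 (Dnmt3-sufficient) and 1.07 (Dnmt3-deficient), Tob1 at 1.77 and 3.43, and Klf4 at 2.54 and 1.46. Without regard to genotype, all 6 GCB libraries lay below all 6 nB libraries for Klf2, Klf3, Klf13, Btg1, Btg2 and Cdkn1b (6 members, against 14.4% of genes) and above them for Klf4 (1 member, against 13.2%). All 6 BMPC libraries lay below all 6 nB libraries for 5 members (18.8% of genes), which were Klf2, Klf6, Klf13, Btg1 and Btg2, and above them for 0 (6.01%). Between BMPC and GCB the libraries were separate for Cdkn1b, higher in BMPC (5.13% of genes), and for Klf6, lower in BMPC (18.1%).

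**Figure D2:**
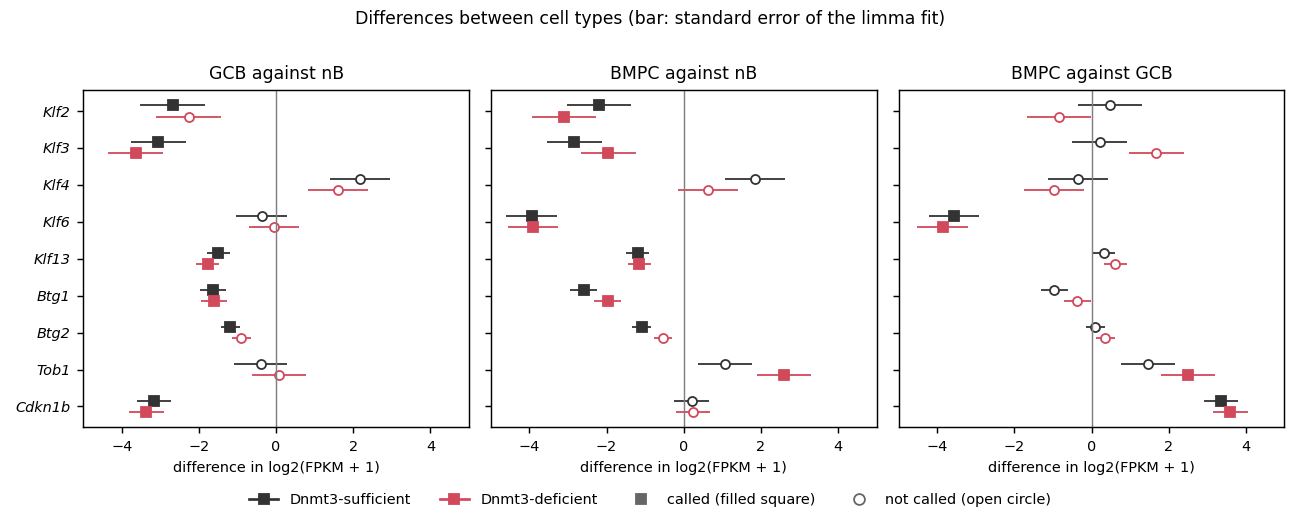
Difference in log2(FPKM + 1) (horizontal axes) between cell types for the 9 tested genes, with the standard error of the limma fit as bars, Dnmt3-sufficient in black and Dnmt3-deficient in red, filled squares for called differences and open circles for the others. Klf2, Klf3, Klf13, Btg1, Btg2 and Cdkn1b are left of 0 in GCB against nB, Klf6 is left of 0 in both BMPC panels, and Cdkn1b is right of 0 only in BMPC against GCB by a called difference.

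Klf2, the quiescence factor of naive lymphocytes, was present at 31.1, 12.7 and 23.0 FPKM in the Dnmt3-sufficient nB libraries and at 22.9, 28.0 and 14.5 in the Dnmt3-deficient ones. In GCB it was at 1.18, 2.45 and 4.29 FPKM in Dnmt3-sufficient and 3.30, 2.66 and 5.12 in Dnmt3-deficient cells, so no GCB library reached the lowest nB library. In BMPC the libraries were uneven, with 0, 8.40 and 10.5 FPKM in Dnmt3-sufficient and 0, 6.50 and 1.22 in Dnmt3-deficient cells. A count of 0 allowed up to 0.752 and 1.01 FPKM in the libraries at 0, taking 3 reads as the limit. The level in Dnmt3-sufficient GCB was 8.44-fold lower than in nB on the means (difference -2.68, SE 0.83, adjusted p = 0.038). In Dnmt3-deficient cells it was 5.91-fold lower and was not called (-2.27, SE 0.83, adjusted p = 0.085). That difference passed under 2 of 16 alternatives. These were the limma fit of only the groups compared (adjusted p = 0.0061) and that with weighted libraries (adjusted p = 0.00093). In BMPC the level was 3.54-fold lower than in nB in Dnmt3-sufficient (-2.20, adjusted p = 0.045) and 8.48-fold lower in Dnmt3-deficient cells (-3.11, adjusted p = 0.0076). The calls in Dnmt3-sufficient cells stood close to the limit on p. That for GCB was lost without nB replicate 1 (-2.41) or 3 (-2.62) and without GCB library F2 (-2.36), F3 (-2.69) or M1 (-3.00). The size of the GCB difference stayed between -3.03 and -2.36 when a library was left out. The call for BMPC was lost without nB replicate 1 (-1.93), 2 (-2.55) or 3 (-2.14) and without BMPC replicate 1 (-1.08), which had no Klf2 read. Between BMPC and GCB, the difference of Klf2 was within its spread (0.48, adjusted p = 0.71 in Dnmt3-sufficient, where leaving out BMPC replicate 2 or 3 gave -0.01 or -0.15, and -0.84, adjusted p = 0.46 in Dnmt3-deficient cells).

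Receptors of lymphocyte exit and homing that are linked to Klf2 were measured in the same libraries. S1pr1, Itgb7 and Ccr7 were all lower in GCB and in BMPC than in nB in both genotypes. S1pr1, the receptor for sphingosine 1-phosphate that guides exit from lymphoid organs, was at 93.7 ± 6.20 FPKM in Dnmt3-sufficient nB, 3.03 ± 3.26 in GCB and 0.203 ± 0.351 in BMPC (SD, n = 3). Ccr7, a chemokine receptor for entry into the T cell zone, differed from Dnmt3-sufficient nB by -6.05 in GCB and -6.19 in BMPC on the log2(FPKM + 1) scale. Ccr7 is also among the nB markers used above.

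Klf3 was the member with the lowest share of its nB level left in GCB. The Dnmt3-sufficient nB libraries held 16.4, 6.83 and 10.5 FPKM and the Dnmt3-deficient ones 14.4, 10.9 and 12.4. GCB libraries held 0, 0.483 and 0.849 FPKM without Cre and 0, 0.288 and 0 with it. No library of the cell types overlapped. The mean was 25.4-fold lower in Dnmt3-sufficient GCB (-3.05, SE 0.71, adjusted p = 0.0066), and the difference in Dnmt3-deficient cells was -3.64 (SE 0.71, adjusted p = 0.0020). In BMPC Klf3 had 0, 0 and 3.26 FPKM in Dnmt3-sufficient and 0.119, 10.6 and 2.23 in Dnmt3-deficient libraries. A single Dnmt3-deficient BMPC library thus came within the range of nB, and that library had 74 Klf3 reads while another had 1. The difference from nB was called in Dnmt3-sufficient (-2.84, adjusted p = 0.0047) and in Dnmt3-deficient cells (-1.96, adjusted p = 0.037). The latter was lost without nB replicate 1 (-1.87), 2 (-2.05) or 3 (-1.96) and without BMPC replicate 1 (-1.14) or 3 (-1.91).

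Klf13 was the most abundant Krüppel-like factor in every group. The nB libraries held 112, 171 and 133 FPKM (Dnmt3-sufficient) and 132, 145 and 117 (Dnmt3-deficient). GCB libraries held 43.4, 53.1 and 46.5 FPKM (Dnmt3-sufficient) and 36.4, 41.7 and 35.0 (Dnmt3-deficient), and BMPC libraries 63.4, 78.8 and 41.5 (Dnmt3-sufficient) and 59.8, 41.3 and 80.3 (Dnmt3-deficient). The nB libraries lay above all others, and GCB and BMPC libraries overlapped in both genotypes. The fall to GCB was 2.90-fold in Dnmt3-sufficient (-1.50, SE 0.30, adjusted p = 0.0020) and 3.49-fold in Dnmt3-deficient cells (-1.77, adjusted p = 0.00053). BMPC were 2.26-fold below nB (-1.19, adjusted p = 0.0047) and, in Dnmt3-deficient cells, 2.18-fold (-1.15, adjusted p = 0.0059). The BMPC calls stood close to the limit on size. They were lost at -0.94 without Dnmt3-sufficient BMPC replicate 3, at -0.91 without Dnmt3-deficient BMPC replicate 2 and, in Dnmt3-deficient cells, at -0.89 under median of ratios scaling. The Dnmt3-deficient call was also lost with voom, on its p and not its size (-1.06, adjusted p = 0.074).

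Klf6 was at like levels in naive and germinal center cells and low in plasma cells. It was at 42.6, 34.7 and 27.7 FPKM in Dnmt3-sufficient and 39.2, 34.2 and 27.7 in Dnmt3-deficient nB, and at 22.1, 29.2 and 28.5 in Dnmt3-sufficient and 35.2, 28.5 and 33.0 in Dnmt3-deficient GCB. These ranges overlapped, and the differences of -0.37 and -0.05 were not called (SE 0.65, adjusted p = 0.80 and 0.99). BMPC libraries held 7.56, 0.436 and 0 FPKM in Dnmt3-sufficient and 2.18, 0 and 2.72 in Dnmt3-deficient cells, all below every nB and GCB library. Against nB the mean was 13.1-fold lower in Dnmt3-sufficient (-3.94, SE 0.65, adjusted p = 0.00019) and 20.6-fold lower in Dnmt3-deficient cells (-3.91, adjusted p = 0.00022). Against GCB it was 9.98-fold and 19.7-fold lower (-3.57, adjusted p = 0.00062, and -3.86, adjusted p = 0.00028). All these BMPC calls were kept when each library was left out in turn.

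Klf4 was scarce in nB and present in GCB. The nB libraries held 0.0491, 0.215 and 0.439 FPKM in Dnmt3-sufficient and 1.23, 1.31 and 0 in Dnmt3-deficient cells, and the GCB libraries 3.21, 6.27 and 4.54 and 5.44, 4.23 and 3.24. All 6 GCB libraries were above all 6 nB libraries, but the differences of 2.18 (SE 0.78, adjusted p = 0.072) and 1.6 (adjusted p = 0.22) were not called. Both passed when the fit held only the groups compared (adjusted p = 0.0038 and 0.033) or weighted each library (adjusted p = 0.00095 and 0.0048). BMPC ranged from 0 to 10.3 FPKM, with 6.43, 0 and 10.3 in Dnmt3-sufficient and 6.04, 1.70 and 0 in Dnmt3-deficient cells. There the value turned on a single library: the difference of 1.84 from Dnmt3-sufficient nB (adjusted p = 0.071) became 2.91 (adjusted p = 0.0027) without the BMPC library at 0. Leaving out that library also turned the difference from GCB from -0.34 to 0.73. In Dnmt3-deficient cells the difference from nB was 0.63, and -0.07 without BMPC replicate 1.

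Klf9 was at most 0.910 FPKM, in a Dnmt3-deficient GCB library, and was listed at 0 in all 6 BMPC libraries. Of the 11 other Klf genes in the table, 6 passed the filter. From nB to GCB 2 were lower and 0 higher in each genotype, and from nB to BMPC 2 were lower and 1 higher in each. Klf7 was at 10.3 ± 3.43 FPKM in Dnmt3-sufficient nB, 0.612 ± 0.168 in GCB and 0 in every Dnmt3-sufficient BMPC library (SD, n = 3), while 1 Dnmt3-deficient BMPC library had 8.81. Its difference from nB to GCB was -2.76 (adjusted p = 0.0088). Klf8 differed by -1.26 in the same comparison (adjusted p = 0.039). The called rise in BMPC was that of Klf1, the erythroid member of the family, which was at 0 in all 12 nB and GCB libraries and at 3.09 to 34.7 FPKM in BMPC. The erythroid markers were high in the same libraries, and their part in the level of Klf1 was not tested.

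Btg1, which recruits the deadenylase complex to messenger RNAs and restrains lymphocyte activation, was the most abundant member in nB and had narrow replicate spread there. It stood at 267, 256 and 240 FPKM in Dnmt3-sufficient and 227, 278 and 241 in Dnmt3-deficient nB. In GCB it was at 68.2, 88.9 and 88.5 FPKM in Dnmt3-sufficient and 94.3, 54.9 and 102 in Dnmt3-deficient cells. BMPC had 48.6, 21.1 and 67.7 FPKM in Dnmt3-sufficient and 77.2, 52.6 and 60.1 in Dnmt3-deficient cells. No GCB or BMPC library reached the nB range. GCB were 3.11-fold below nB in Dnmt3-sufficient (-1.63, SE 0.34, adjusted p = 0.0032) and 2.97-fold in Dnmt3-deficient cells (-1.6, adjusted p = 0.0041). BMPC were 5.56-fold below nB (-2.60, adjusted p = 2.15e-05) and 3.93-fold (-1.97, adjusted p = 0.00032). These calls were kept when any library was left out. From GCB to BMPC the difference was -0.96 (adjusted p = 0.045) in Dnmt3-sufficient cells, under the limit on size, and it passed at -1.08 and -1.32 without BMPC replicate 1 or 3.

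Btg2, a close relative of Btg1 that p53 and growth signals induce, was at 137, 140 and 170 FPKM in Dnmt3-sufficient and 134, 156 and 164 in Dnmt3-deficient nB. GCB libraries held 63.6, 67.4 and 62.4 FPKM in Dnmt3-sufficient and 80.5, 92.6 and 69.6 in Dnmt3-deficient cells, and BMPC libraries 62.8, 53.7 and 97.6 and 92.6, 122 and 98.6. All GCB and BMPC libraries lay below all nB libraries. The difference from nB to GCB was -1.19 in Dnmt3-sufficient (SE 0.24, adjusted p = 0.0025) and -0.90 in Dnmt3-deficient cells (adjusted p = 0.018), where it missed the limit on size but reached it, at -1.0 (adjusted p = 0.026), without GCB library F3. From nB to BMPC it was -1.09 in Dnmt3-sufficient (adjusted p = 0.0020) and -0.54 in Dnmt3-deficient cells (adjusted p = 0.088). The call in Dnmt3-sufficient BMPC was lost at -0.99 without nB replicate 3 and at -0.91 without BMPC replicate 2.

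Tob1 stood highest in plasma cells, by a difference that was called in Dnmt3-deficient cells. In nB it was at 5.75, 1.77 and 2.87 FPKM in Dnmt3-sufficient and 1.92, 5.99 and 4.06 in Dnmt3-deficient cells, and GCB were in the same range, with 1.28, 1.37 and 4.81 and 3.57, 3.36 and 5.16. Dnmt3-deficient BMPC held 25.5, 45.5 and 17.4 FPKM, all above every nB and GCB library. Dnmt3-sufficient BMPC held 2.39, 28.8 and 5.55 FPKM, and only replicate 2 was above all nB libraries. The rise over nB was 7.38-fold in Dnmt3-deficient cells (2.59, SE 0.70, adjusted p = 0.0078) and that over GCB 7.31-fold (2.51, adjusted p = 0.011). In Dnmt3-sufficient cells the differences were 1.06 (adjusted p = 0.24) and 1.47 (adjusted p = 0.13), and the second passed without BMPC replicate 1 (2.15, adjusted p = 0.029). Between the genotypes, the effect of plasma cells against nB was not called different by the test of the interaction (1.53, SE 0.99, adjusted p = 0.57).

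Of the 3 other BTG and TOB genes, 2 passed the filter. Tob2 was lower in BMPC than in nB in both genotypes, with differences of -3.27 in Dnmt3-sufficient (adjusted p = 0.00061) and -2.05 in Dnmt3-deficient cells (adjusted p = 0.015). Tob1 and Tob2 therefore differed from nB in opposite directions in Dnmt3-deficient BMPC. The CCR4-NOT complex, to which these proteins bind, was measured through 11 genes. From nB to GCB 1 was higher in Dnmt3-sufficient cells, Rqcd1 (1.81, adjusted p = 0.0065), and 0 were lower. In Dnmt3-deficient cells 0 were called in either direction by limma, with 2 at an unadjusted p under 0.05 and 1 called by voom. From nB to BMPC, 27.6% (Dnmt3-sufficient) and 30.6% (Dnmt3-deficient) of all genes were lower. Of the 11 genes, 3 were lower and 0 higher in each genotype. In Dnmt3-sufficient cells the largest falls among these were those of Cnot7, a catalytic subunit (-2.70, adjusted p = 0.014), and Cnot3 (-2.01, adjusted p = 0.017). The list's median from nB to BMPC was -0.94 (Dnmt3-sufficient) and -0.77 (Dnmt3-deficient), beside the all-gene medians of -0.70 and -0.84.

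Cdkn1b was low in the dividing germinal center cells and in the range of nB in plasma cells. In nB it was at 33.8, 20.6 and 15 FPKM in Dnmt3-sufficient and 23.9, 22.7 and 29.8 in Dnmt3-deficient cells. GCB libraries held 1.36, 1.02 and 2.56 FPKM in Dnmt3-sufficient and 1.56, 2.17 and 1.06 in Dnmt3-deficient cells. BMPC libraries held 26.4, 41.5 and 14.8 FPKM and 29.8, 33.5 and 27. The 6 GCB libraries lay below the 12 others with no overlap, and nB and BMPC overlapped. GCB were 14.1-fold below nB in Dnmt3-sufficient (-3.16, SE 0.45, adjusted p = 9.76e-05) and 15.9-fold in Dnmt3-deficient cells (-3.36, adjusted p = 6.28e-05). BMPC were 16.8-fold above GCB (3.36, adjusted p = 3.22e-05) and 18.8-fold (3.60, adjusted p = 1.47e-05). The differences between BMPC and nB were 0.20 (95% interval -0.74 to 1.15) and 0.24 (-0.71 to 1.18), with adjusted p of 0.76 and 0.71. The 4 called differences were kept under all 16 alternatives run on each.

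The RNA of the subunits of the ligase that removes p27 was read in the same libraries. The ligase acts on p27 protein, which was not measured. Cks1b had 10.7 ± 5.88 FPKM in Dnmt3-sufficient nB, 385 ± 10.4 in GCB and 455 ± 161 in BMPC (SD, n = 3), so it rose in GCB (5.21, adjusted p = 1.12e-07) and the difference between GCB and BMPC was within its spread (0.18, adjusted p = 0.77). Skp2 was highest in GCB on the means. It reached 3.40 FPKM at most in nB and 0.567 in Dnmt3-sufficient BMPC, against 6.41 to 7.99 in GCB, while Dnmt3-deficient BMPC had 0, 0.306 and 7.88. The fall of Skp2 from GCB to BMPC was called in both genotypes (-2.72, adjusted p = 0.0049, and -1.88, adjusted p = 0.035). Its rise from nB to GCB was called in Dnmt3-deficient (2.58, adjusted p = 0.013) and not in Dnmt3-sufficient cells (1.70, adjusted p = 0.096). Of the 5 SCF genes, 1 was higher in Dnmt3-sufficient GCB than nB and 2 in Dnmt3-deficient GCB, and 3 and 1 were higher in BMPC than nB, with 0 lower. All 6 GCB libraries, low in Cdkn1b RNA, had Skp2 at 6.41 FPKM or more, as did 1 Dnmt3-deficient BMPC library. Cdkn1b and Cks1b RNA were both high in BMPC. A link between these RNA levels was not tested.

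**Figure D3:**
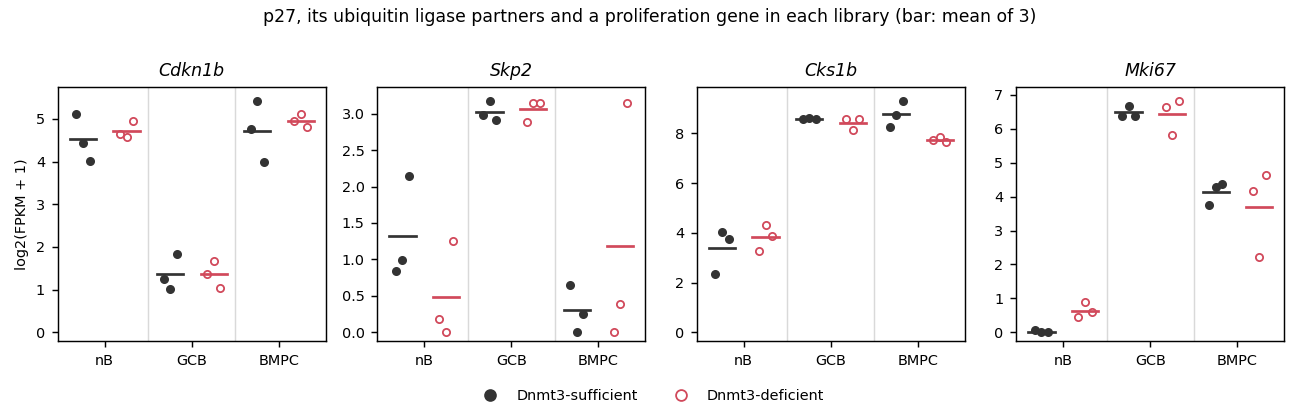
Level on the log2(FPKM + 1) scale (vertical axes, which differ between panels) of Cdkn1b, Skp2, Cks1b and the proliferation gene Mki67 in the 18 libraries by cell type, with filled points for Dnmt3-sufficient, open points for Dnmt3-deficient and bars for the mean of 3 libraries. Cdkn1b is low and Skp2 high in GCB (Skp2 also in 1 Dnmt3-deficient BMPC library), where Mki67 is highest, and Cks1b is high in both GCB and BMPC.

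Proliferation genes were read as a measure of cycling. All 12 were higher in GCB than in nB in both genotypes, and from nB to BMPC 7 were higher in Dnmt3-sufficient and 5 in Dnmt3-deficient cells. Ccnb2, a mitotic cyclin, differed by 7.36 between Dnmt3-sufficient GCB and nB (adjusted p = 9.24e-05) and Ccnb1 by 7.10. Mki67 was at 0.0148 ± 0.0257 FPKM in Dnmt3-sufficient nB, 88.8 ± 10.8 in GCB and 16.8 ± 3.93 in BMPC (SD, n = 3). The BMPC libraries thus held RNA of proliferation genes beside high Cdkn1b, and they also held the early B cell and erythroid markers given above. Which cells carried which RNA was not tested.

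Among the 9 G1 cyclins and their kinases, 3 rose and 0 fell in Dnmt3-sufficient GCB against nB, and 3 rose and 1 fell in Dnmt3-deficient GCB. Ccna2 (4.64, adjusted p = 3.49e-05) and Ccne2 (4.38, adjusted p = 0.00030), the cyclins of CDK2, had the largest of these rises. From nB to BMPC 3 were higher and 2 lower in Dnmt3-sufficient and 2 and 2 in Dnmt3-deficient cells. The shares of all genes were 9.74% higher and 27.6% lower (Dnmt3-sufficient), and 6.85% and 30.6% (Dnmt3-deficient). In Dnmt3-sufficient BMPC, Ccnd3, the D-type cyclin that germinal center cells use, fell by 4.25 on the log2(FPKM + 1) scale (adjusted p = 7.53e-06). Cdk2, the kinase that p27 inhibits, fell by 2.21 (adjusted p = 0.0063). Ccnd3 was at 44.2 ± 10.6 FPKM in Dnmt3-sufficient nB, 18.2 ± 4.55 in GCB and 1.73 ± 1.95 in BMPC (SD, n = 3). Its lower level in GCB than in nB was not called in these cells. Of 12 genes of the Rb family and the DREAM complex, which represses cell cycle genes in resting cells, 2 were higher and 0 lower in GCB than nB in each genotype. These were Tfdp1 (4.52, adjusted p = 7.38e-05) and Rbbp4 (1.52, adjusted p = 0.0020) in Dnmt3-sufficient cells. In Dnmt3-sufficient BMPC against nB, 1 rose (Tfdp1, 3.51) and 0 fell, against 9.74% and 27.6% of all genes. In Dnmt3-deficient cells 0 rose and 5 fell, against 6.85% and 30.6%. The interaction of genotype with cell type between BMPC and nB was called for 0 of these 12 genes.

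A fall in GCB like that of Cdkn1b was called by limma for no other tested inhibitor of cyclin-dependent kinases. Of 6 genes, 4 passed the filter. From nB to GCB 0 were called in either genotype by limma, with 0 (Dnmt3-sufficient) and 1 (Dnmt3-deficient) at an unadjusted p under 0.05 and as many called by voom. From nB to BMPC 1 was lower in each genotype. This was Cdkn2d, the inhibitor p19, which was at 40.9 ± 2.40 FPKM in Dnmt3-sufficient nB, 63.2 ± 4.38 in GCB and 6.99 ± 10.5 in BMPC (SD, n = 3). Its difference from nB to BMPC was -3.43 (adjusted p = 0.0012), while Cdkn1b differed by 0.20. Of the 4 FoxO genes 2 passed the filter, and 0 were called between GCB and nB in either genotype by limma, with 1 (Dnmt3-sufficient) and 0 (Dnmt3-deficient) at an unadjusted p under 0.05 and as many called by voom. Foxo1 had 34.6 ± 5.44 FPKM in Dnmt3-sufficient nB, 14.7 ± 3.75 in GCB and 9.28 ± 7.82 in BMPC. In Dnmt3-sufficient cells Foxo1 was lower in BMPC than in nB (-2.25, adjusted p = 0.0060), as was Foxo4 (-1.70, adjusted p = 0.0086). Foxo4 was scarce, at 2.60 ± 1.93 FPKM in Dnmt3-sufficient nB (SD, n = 3) and 0 in Dnmt3-sufficient BMPC. In Dnmt3-deficient cells 1 of the 2 FoxO genes was called lower in BMPC than in nB by limma, and 0 were called by voom. Foxo1 was uneven in Dnmt3-sufficient BMPC, from 1.09 to 16.7 FPKM. Cdkn1b, a known FoxO target, overlapped its nB levels in BMPC. These are RNA levels, and a link between Foxo1 and Cdkn1b was not tested.

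Klf4, Klf6 and Btg2 can be induced within minutes of stimulation or tissue handling, as immediate early genes are. Of 16 immediate early genes, 2 were higher and 3 lower in Dnmt3-sufficient GCB than nB, and 2 and 4 in Dnmt3-deficient cells. In BMPC against nB, 4 were higher and 3 lower in Dnmt3-sufficient cells, and 3 and 2 in Dnmt3-deficient cells. The shares of all genes in BMPC against nB were 9.74% and 27.6% (Dnmt3-sufficient), and 6.85% and 30.6% (Dnmt3-deficient). Fos was at most 9.63 FPKM in nB, against 126 to 216 in GCB and 105 to 189 in BMPC. Dusp1, a phosphatase gene, differed by 3.73 from nB to GCB (adjusted p = 0.0024). Nr4a1 (-3.31, adjusted p = 0.00037) and Egr3 (-3.09, adjusted p = 0.00036), which B cell receptor signals induce, were lower in Dnmt3-sufficient GCB than nB. The part of these in the levels of Klf4, Klf6 and Btg2 was not tested.

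Loss of Dnmt3a and Dnmt3b gave no called difference in any member. In nB 0 of 9 were called, against 0.0521% of genes, with 0 at an unadjusted p under 0.05, and differences ran from -0.06 to 0.50. In GCB 0 were called, against 0.0% of genes, with 0 at an unadjusted p under 0.05 and differences from -0.36 to 0.65. In BMPC 0 were called, against 3.98% of genes, with 2 at an unadjusted p under 0.05 and differences from -0.90 (Klf2) to 1.70 (Tob1). A fit with voom on the recovered reads also called 0 in each cell type. The libraries of the genotypes were separate for 0 of the 9 tested members in nB (8.84% of genes), 2 in GCB (10.6%) and 0 in BMPC (10.3%). Klf9, too low to be tested, was at 0 to 0.136 FPKM in Dnmt3-sufficient nB and 0.652 to 0.722 in Dnmt3-deficient nB. The 2 in GCB were Klf13, 47.7 ± 4.95 FPKM in Dnmt3-sufficient and 37.7 ± 3.57 in Dnmt3-deficient cells, and Btg2, 64.5 ± 2.62 and 80.9 ± 11.5 (SD, n = 3), and neither difference passed the test (-0.33 and 0.31, adjusted p = 1).

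The 2 members with an unadjusted p under 0.05 in BMPC were Tob1 and Btg2, both higher in Dnmt3-deficient cells. Tob1 was at 12.2 ± 14.4 FPKM in Dnmt3-sufficient and 29.5 ± 14.5 in Dnmt3-deficient BMPC (difference 1.70, SE 0.70, 95% interval 0.23 to 3.17, adjusted p = 0.17). The ranges overlapped through Dnmt3-sufficient replicate 2, at 28.8 FPKM. Without that library the difference was 2.59 and passed (adjusted p = 0.018). Btg2 was at 71.4 ± 23.2 and 104 ± 15.4 FPKM (0.58, SE 0.24, 95% interval 0.07 to 1.09, adjusted p = 0.18). Marker sums also moved with genotype in these libraries. Dnmt3-sufficient BMPC held 1160 to 2194 FPKM of the 4 erythroid markers and Dnmt3-deficient BMPC 149 to 797. The 7 BMPC markers summed to 18915 to 29493 in Dnmt3-sufficient and to 33952 to 51504 in Dnmt3-deficient libraries. The macrophage sum, 63.5 to 87.7 against 98.4 to 227, and the NK cell sum, 86.2 to 158 against 26.3 to 78.7, were separate too, while the neutrophil, T cell and early B cell sums overlapped. In nB the erythroid sum was 0.468 to 1.42 in Dnmt3-sufficient and 22.5 to 218 in Dnmt3-deficient libraries, and the NK cell sum 46.1 to 94.8 and 95.9 to 138. The part of these cells in the genotype differences, those of Tob1, Btg2 and Klf2 in BMPC included, was not tested. For Cdkn1b the 95% intervals of the genotype difference were -0.71 to 1.17 (BMPC), -0.74 to 1.14 (nB) and -0.95 to 0.94 (GCB), so differences within these bounds could not be told from 0 with 3 libraries a group. The interaction of genotype with cell type was called for 0 of 9 members between GCB and nB (0.0% of genes) and for 0 between BMPC and nB (0.555%), with 0 at an unadjusted p under 0.05 and 0 by voom in both.

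**Figure D4:**
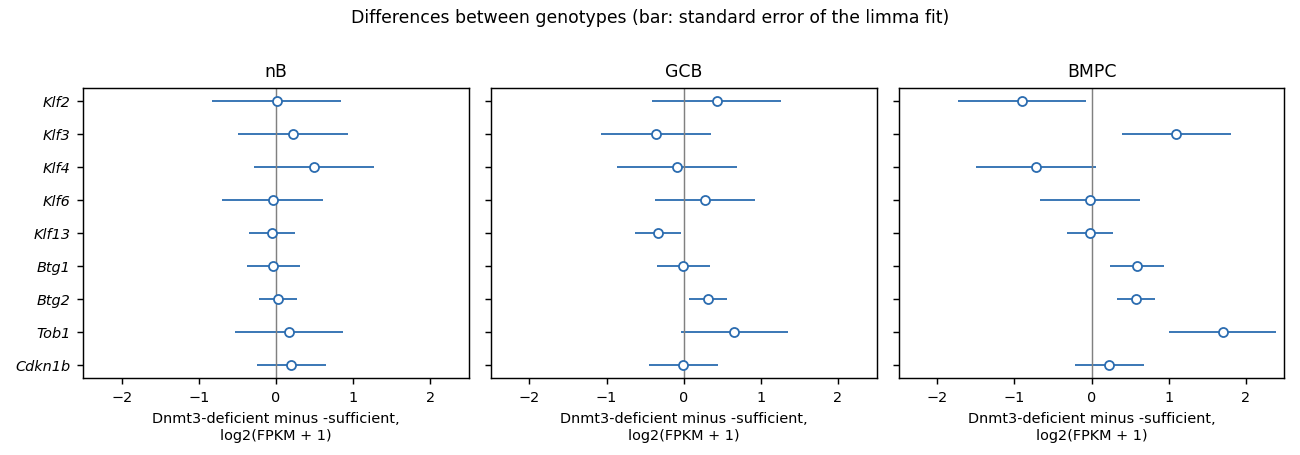
Difference between Dnmt3-deficient and Dnmt3-sufficient libraries in log2(FPKM + 1) (horizontal axes) for the 9 tested genes in nB, GCB and BMPC, with the standard error of the limma fit as bars. Differences lie from -0.06 to 0.50 in nB and from -0.36 to 0.65 in GCB, and from -0.90 for Klf2 to 1.70 for Tob1 in BMPC.

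The members were also compared by their levels over the 6 group means. Each gene was centred on its own mean but not scaled for its range. The measure of likeness was the root mean square difference on the log2(FPKM + 1) scale. The genes most like Klf2 were Pstpip1 (0.15) and Phf21a (0.16), and those most like Klf3 were Snhg20 (0.24) and Kctd12 (0.27). Gpr18 (0.10) and Zfp36l1 (0.13), the latter also a gene of messenger RNA decay, were most like Btg1. Fam84b and Smim3 (0.11 and 0.12) were most like Klf13, and Kat2a and Prr12 (0.094 and 0.096) most like Btg2. Cdkn1b was most like Itm2b (0.15) and Tnfrsf18 (0.20), Klf6 most like Ppp1r12a (0.12) and Prpf6 (0.16), and Tob1 most like Akap17b (0.16) and Gsta4 (0.22). Among the members themselves the closest pair was Klf13 and Btg2 (0.35), and the next were Klf13 and Btg1 and Klf2 and Btg1 (both 0.57). Many other genes lay closer, as Btg2 ranked 273 in likeness to Klf13, and Klf13 ranked 634 in likeness to Btg2. Btg1 ranked 1481 for Klf13 and 359 for Klf2. The measure depends on range, and the ranges of Klf13 and Btg2 were small (1.83 and 1.21 on the log2 scale). The pair with the least alike course was Klf6 and Cdkn1b (2.95), which were low in different cell types.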

How the data were processed

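The members and the related gene lists were chosen with earlier results of these data known. The authors mapped read pairs to mm9 with TopHat, counted reads over exons of UCSC KnownGenes with summarizeOverlaps and deposited FPKM values, with no word on strand, so values of overlapping or antisense genes are uncertain. The exon length per gene is the authors' too. The table's 54 columns of the authors' own comparisons (log2 changes and adjusted p-values from edgeR) were not used, and 0 value columns belonged to no library. FPKM times exon length gave whole reads in 100% of values (tolerance 0.01), which gave the depth. Amplified reads are not independent molecules, so limits from 3 reads cover counting error only.

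Differences came from limma 3.58.1 in R 4.3.3 on log2(FPKM + 1), which understates changes of low genes, with 6 group means over 18 libraries, a variance trend, two-sided tests and Benjamini-Hochberg adjustment over the 11522 genes that had 2 or more libraries above 1 FPKM. The fit was tested on simulated data for the genotype comparison in nB only, with the same spread setting in every group. That test did not cover comparisons with BMPC. Adjusted p-values in the text are limma's. They rest on 1 spread per gene, pooled over all 6 groups of 3 libraries. BMPC libraries varied more than the others. The pooled spread can thus be too large for GCB against nB and too small for comparisons with BMPC. For Klf2 in Dnmt3-sufficient BMPC against nB, the adjusted p of 0.045 became 0.18 when limma held only the groups compared. Alternatives were other pseudocounts, filters, scaling, weights, voom, thresholds, sex as a covariate and leaving out each library. All 10 members are described. From each related list the 2 largest called rises and falls from Dnmt3-sufficient nB could be named, and Skp2 and Mki67 were named besides after their values were seen. The 2 most alike genes were named for each member called between cell types. Dnmt3a and Dnmt3b levels do not check the genotype, since only part of each gene is floxed.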

Additional observations from a re-analysis of the deposited data

How the results depend on the processing

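The counts of members called were recomputed under the alternatives, and 187 of 189 counts stayed within 1.5 times the main one. This limit is wide, since a main count of 6 stays within it down to 4, and the loss of a single call there does not register. The main counts of the genotype and interaction comparisons were 0. Leaving out a library each gave 0 to 1 members called between genotypes in BMPC, the 1 being Tob1 without Dnmt3-sufficient replicate 2, and 2 to 4 called between BMPC and GCB in Dnmt3-sufficient cells, the 4 without BMPC replicate 1. Single differences kept their direction and side of the threshold in 905 of 965 recomputed values, lost a call in 37, gained one in 17 and turned in sign in 6, all 6 uncalled. The difference of Klf2 between BMPC and GCB in Dnmt3-sufficient cells turned to -0.22 with a pseudocount of 0.1 and to -0.019 with voom, and ran from -0.15 to 1.61 when a library was left out. Leaving out a library moved that of Klf4 from -1.02 to 0.73 in the same comparison, and from -0.074 to 1.33 between Dnmt3-deficient BMPC and nB. The causes were not tested. Calls of Klf2 in Dnmt3-sufficient cells were lost under 9 of 16 alternatives for GCB and 10 for BMPC, and that of Klf3 in Dnmt3-deficient BMPC under 11. In GCB, libraries of the same number (F2, F3, M1) were of the same sex. They did not deviate together over the genes tested (correlations of -8.06e-05, -0.017 and 0.026), which cannot exclude that they were paired. A fit with the replicate block called 0 members between genotypes. BMPC libraries were shallower and had a median SD of 0.775 to 0.816 on the log2 scale against 0.271 to 0.412 elsewhere, which limits low genes such as Klf2, Klf3 and Klf6 there.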
